A study of Homo sapiens with 18 samples.

Results

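Of the 58825 genes counted in each library, 10 genes of NF-κB signalling and chemokine biology were followed. They were chosen by name, with earlier results of these data known, and found through their Ensembl identifiers. They are the chemokines CXCL1, CXCL2, CXCL8 and CCL20, the chemokine receptor CCR1, and the NF-κB pathway genes NFKBIA, NFKB2, RELB, TNFAIP3 and BIRC3. All 10 identifiers matched a symbol, and all 10 genes had counts. The RNA came from OVCAR-3, an established cell line of high-grade serous ovarian carcinoma (HGSC), kept in stripped medium. Cells received DMSO (the vehicle), 1 µM i-BET858 or 1 µM i-BET151 for 4 or 24 h, with 3 biological replicates in each of the 6 conditions and 18 libraries in all. Both drugs are BET inhibitors (BETi), which keep bromodomain proteins from acetylated histones. The labels name no cytokine or other stimulus, and the cultures are a model of 1 tumour cell line without added immune or stromal cells. In such bulk RNA, fewer cells of a type and less RNA per cell cannot be told apart. The comparisons ask what each drug did to these transcripts at each time, whether the drugs differed, and whether an effect differed between 4 and 24 h.

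NF-κB is a family of dimeric transcription factors that bind κB sites in promoters and enhancers. In the canonical pathway, receptors of TNF, interleukin-1 and microbial products activate the IKK complex, which marks IκB proteins such as the product of NFKBIA for degradation and frees RELA and NFKB1 dimers, whereas the non-canonical pathway runs through MAP3K14 and the NFKB2 and RELB proteins. Many target genes are themselves regulators of the pathway (NFKBIA, NFKB2, RELB, TNFAIP3, BIRC3), and others encode chemokines. CXCL1, CXCL2 and CXCL8 draw neutrophils through CXCR1 and CXCR2, CCL20 is the ligand of CCR6, and CCR1 is a receptor of inflammatory CC chemokines that is best known from monocytes and other leukocytes.

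The upstream promoter windows of these genes were read first, because κB letters are the feature by which this group of genes is usually recognised. The windows are the 250 bases before the RefSeq start of each gene (GRCh38.p14, printed on the strand of the gene), and 9 of the 10 genes had an entry, RELB being the gene without one. NFKB2 had 3 windows from 3 starts, of which the most upstream held no match, and a gene counts as matched with a match in any of its windows, whereas the shares of all windows are per window. Both strands were searched for the NF-κB consensus motif and for the letters GGAATTTCC, which overlap each other where both are found. The consensus was found in 7 of the 9 genes, against 5.21% of the 35116 windows of the same length in the table, and GGAATTTCC in 4 (CXCL1, CXCL2, CXCL8 and NFKBIA), against 0.413% of all windows. With either motif counted, 8 genes had a match and CCR1 had none. The windows of the 4 chemokines and NFKBIA, each with 1 match in a single window, and that of CCR1, which had none, follow with the κB letters in capitals.
CXCL1, chr4:73869143-73869392, plus strand: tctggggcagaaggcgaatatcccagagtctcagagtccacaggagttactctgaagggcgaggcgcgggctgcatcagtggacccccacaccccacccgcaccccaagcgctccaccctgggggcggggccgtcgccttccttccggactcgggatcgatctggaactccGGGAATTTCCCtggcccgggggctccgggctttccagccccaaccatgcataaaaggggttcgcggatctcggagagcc
CXCL2, chr4:74099196-74099445, minus strand: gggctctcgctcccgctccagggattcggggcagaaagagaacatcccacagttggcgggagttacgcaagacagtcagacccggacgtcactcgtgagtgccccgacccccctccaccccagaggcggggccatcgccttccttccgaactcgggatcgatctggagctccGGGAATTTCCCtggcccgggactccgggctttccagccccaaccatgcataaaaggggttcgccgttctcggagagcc
CXCL8, chr4:73740319-73740568, plus strand: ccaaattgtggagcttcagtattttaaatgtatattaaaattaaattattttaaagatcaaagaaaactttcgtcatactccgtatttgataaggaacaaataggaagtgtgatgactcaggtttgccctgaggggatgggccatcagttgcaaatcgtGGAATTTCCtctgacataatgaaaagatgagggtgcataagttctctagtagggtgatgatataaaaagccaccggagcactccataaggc
CCL20, chr2:227813592-227813841, plus strand: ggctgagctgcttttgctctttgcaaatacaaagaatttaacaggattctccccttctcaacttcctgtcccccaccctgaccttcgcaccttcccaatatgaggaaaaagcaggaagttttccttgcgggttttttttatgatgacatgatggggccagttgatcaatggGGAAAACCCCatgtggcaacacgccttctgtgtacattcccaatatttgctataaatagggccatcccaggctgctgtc
NFKBIA, chr14:35404750-35404999, minus strand: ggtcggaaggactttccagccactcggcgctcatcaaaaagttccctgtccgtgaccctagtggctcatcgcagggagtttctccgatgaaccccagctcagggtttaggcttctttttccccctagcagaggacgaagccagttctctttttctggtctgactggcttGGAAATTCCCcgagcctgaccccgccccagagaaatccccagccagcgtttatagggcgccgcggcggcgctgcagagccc
CCR1, chr3:46208314-46208563, minus strand: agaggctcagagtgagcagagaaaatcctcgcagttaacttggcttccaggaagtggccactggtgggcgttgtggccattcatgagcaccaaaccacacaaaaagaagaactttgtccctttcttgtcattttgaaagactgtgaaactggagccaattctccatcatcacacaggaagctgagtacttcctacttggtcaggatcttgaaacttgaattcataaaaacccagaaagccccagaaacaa
The matches lay 79 to 69 bases before the start in CXCL1, 78 to 68 in CXCL2, 91 to 83 in CXCL8, 79 to 70 in CCL20 and 81 to 72 in NFKBIA. CXCL8 alone also held TGANTCA, the letters of an AP-1 site, 137 to 131 bases before its start, which 6.57% of all windows held and which are left in lower case above. These are matches of letters and no measure of binding. The GENCODE genes of CXCL8 and CCL20 start upstream of the RefSeq start, within the window shown for CXCL8 and before the whole window for CCL20, which thus lies inside the annotated gene. Those of TNFAIP3 and, at the last base, CXCL2 also start within their windows, and the matched windows of NFKB2 lie inside the annotated gene.

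Library totals ranged from 27323969 to 46299994 counts, so that a count of 0 in a library allowed a level of up to 0.0648 to 0.110 CPM (counts of a gene per 1000000 counts of its library), a limit that covers counting error only. The 6 libraries of replicate 3 stood apart, with 17817 to 20642 genes that had a count against 23674 to 24947 in the other 12, and counts of the 10 genes past the threshold are therefore given without them as well. The 10 epithelial and HGSC markers had at least 10 counts in every library (summed level 6736 to 11694 CPM). At 4 h their sum was 8893 to 10413 CPM under DMSO, 10519 to 11694 under i-BET858 and 9701 to 10514 under i-BET151, and KRT8, CDH1 and MSLN rose under i-BET858, while none of the 10 passed under i-BET151. At 24 h it was 9023 to 11191 CPM under DMSO, 6736 to 7386 under i-BET858 and 7171 to 7800 under i-BET151. That lower sum lay in KRT8, KRT18 and KRT7, which fell with both drugs, while CDH1 and SOX17 rose and PAX8, WT1, MUC16, EPCAM and MSLN did not pass. The median log2 fold change of the 10 at 24 h was −0.05 under i-BET858 and −0.10 under i-BET151, and at 4 h it was 0.31 and 0.13. The 10 leukocyte markers summed to 0.441 to 3.46 CPM, with CD68, CD3E and FCGR3A at no more than 1 count in any library and PTPRC at 0 to 19. Fibroblast markers summed to 21.2 to 48.8 CPM, nearly all of it COL1A1. At 24 h their sum was 30.4 to 36.6 CPM under DMSO, 21.2 to 30.1 under i-BET858 (1 of 3 tested fell) and 24.2 to 28.5 under i-BET151. Endothelial markers summed to 1.85 to 14.2 CPM. At 4 h their sum was 3.78 to 6.95 CPM under DMSO, 8.82 to 14.2 under i-BET858 and 4.72 to 11.8 under i-BET151. Of 3 tested, 1 rose with each drug, beside 14.5% and 7.81% of all genes. At 24 h it was 4.18 to 7.22, 2.20 to 3.71 and 1.85 to 5.82, and none passed. Scaling by total counts instead of TMM factors moved the median of all genes from 0.02 to −0.14 on the log2 scale for i-BET858 at 4 h, and turned the direction of none of the 9 genes with a fitted change against DMSO.

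Under DMSO at 4 h, NFKBIA, the gene of the main IκB inhibitor, had the highest level per kilobase of exon at 41.5 CPM per kb ± 4.89 (SD, n = 3), followed by NFKB2, which encodes the p100 precursor of p52, at 18.7 ± 4.04 and CXCL1 at 14.9 ± 5.74. RELB, the partner of p52, stood at 7.35 ± 0.916. TNFAIP3, the ubiquitin-editing enzyme A20, CXCL8 and CXCL2 stood at 2.26 ± 0.522, 2.24 ± 1.41 and 1.64 ± 0.754, and their ranges overlapped. CCL20 at 0.474 ± 0.281 and CCR1 at 0.225 ± 0.103 overlapped too, and BIRC3, which encodes the ubiquitin ligase cIAP2, was lowest at 0.0983 ± 0.0235. The ranges of NFKB2 and CXCL1 overlapped, and the other neighbours in this order (NFKBIA and NFKB2, CXCL1 and RELB, RELB and TNFAIP3, CXCL2 and CCL20, CCR1 and BIRC3) did not. Between the DMSO libraries of 4 and 24 h, 0 of the 10 genes passed (edgeR quasi-likelihood test, adjusted p of at least 0.432), also without replicate 3. Of all genes, 0.0386% passed in that comparison. TNFAIP3 alone of the 10 had an unadjusted p under 0.05, as had 1664 of all 18154 genes tested. Its log2 difference was −0.64 ± 0.262 (SE), and DESeq2 also called 0 of the 10.

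**Figure D1:**
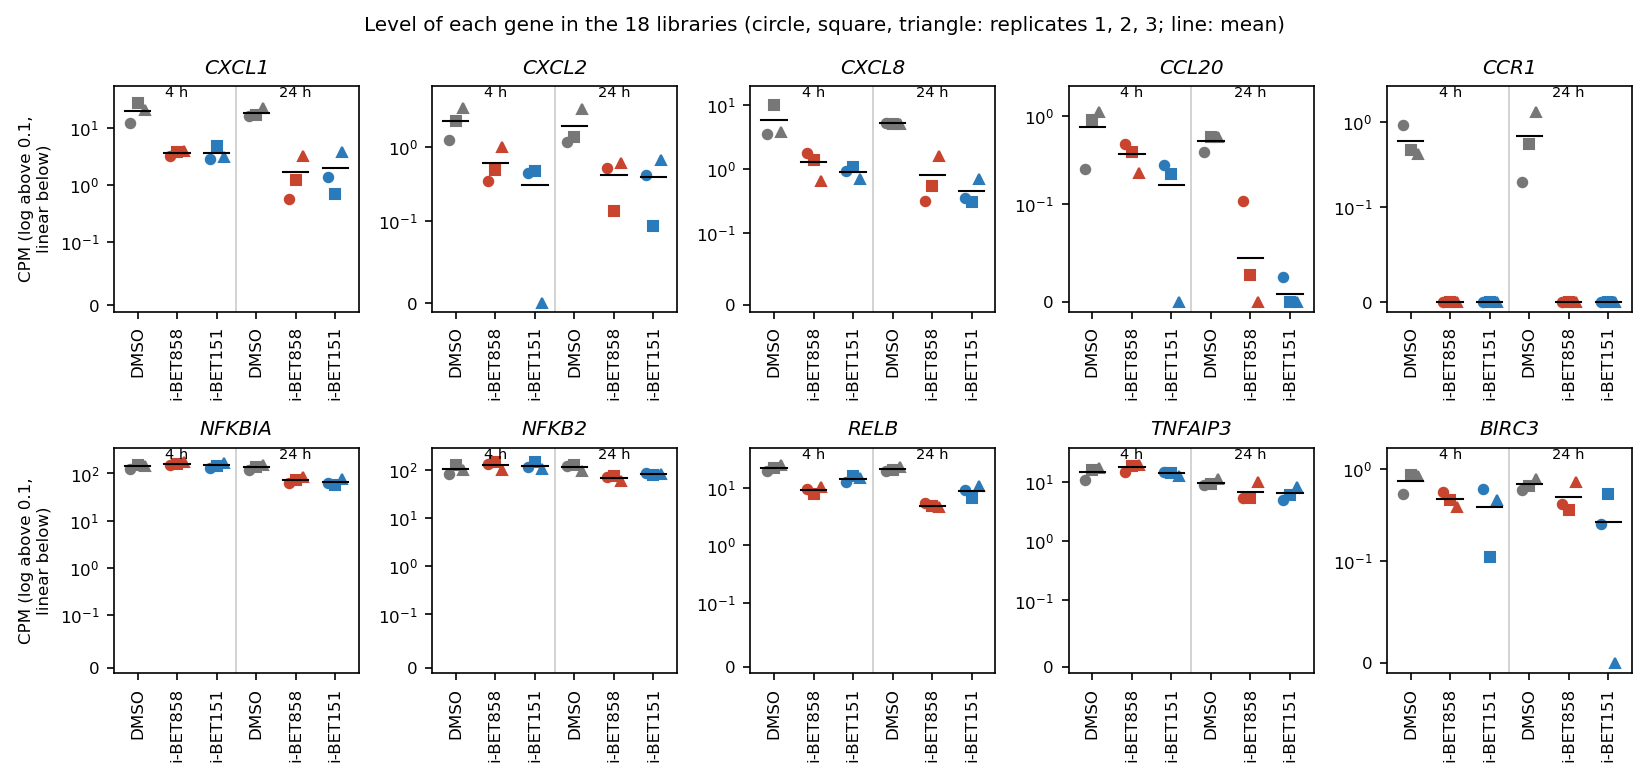
Level of each of the 10 genes in CPM (vertical axis, logarithmic above 0.1 and linear below, so that 0 can be drawn) in the 18 libraries, by condition and time, with 1 symbol for each replicate and a line at the mean of 3. CXCL1, CXCL2 and CXCL8 lie lower in all treated libraries than in the DMSO libraries of the same time, CCL20 does so at 24 h but overlaps at 4 h, CCR1 is at 0 in all 12 treated libraries, and NFKBIA and NFKB2 lie lower at 24 h but not at 4 h.

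After 4 h, 4 of the 10 transcripts fell under i-BET858 (CXCL1, CXCL8, CCR1 and RELB) and 4 fell under i-BET151 (CXCL1, CXCL2, CXCL8 and CCR1), while none rose. Of all 17192 genes tested, 30.8% passed under i-BET858 (16.3% lower and 14.5% higher than under DMSO) and 16.2% under i-BET151 (8.43% lower and 7.81% higher). After 24 h, 7 transcripts fell with each drug (CXCL1, CXCL2, CXCL8, CCL20, NFKBIA, NFKB2 and RELB) out of 9 tested, the filter on low counts having removed CCR1, and none rose. Of all 17157 genes, 41.7% passed under i-BET858 (21.3% lower, 20.5% higher) and 33.8% under i-BET151 (16.6% lower, 17.2% higher). The 10 genes were chosen with earlier results of these data known, so setting them beside these shares is no test of the group. The median log2 fold change of the 10 genes at 4 h was −0.99 under i-BET858 and −1.50 under i-BET151, and that of all genes was 0.02 and 0.01. CCR1, at 0 with both drugs, leaves these medians as they are when it is set at its bound. Groups of 3 drug and 3 DMSO libraries did not overlap in 5 of the 10 genes with either drug at 4 h, where 45.2% of all genes under i-BET858 and 36.8% under i-BET151 did not overlap. At 24 h they did not overlap in 8 of 10 under i-BET858 and in 10 of 10 under i-BET151, beside 54.4% and 48.6% of all genes. CCR1 at 4 h and CCL20 at 24 h reached the level of the filter in no treated library, and so were tested only through the DMSO libraries, where they were high. Without replicate 3, 6 and 4 of the 10 passed at 4 h (41.9% and 25.9% of all genes in the same fit) and 8 and 8 of 9 at 24 h (60.7% and 54.2%). With the replicate number as a block, 7 passed under i-BET858 at 4 h (45.4% of all genes), NFKBIA, NFKB2 and TNFAIP3 being the additional genes, all higher than under DMSO. Under i-BET151 at 4 h, 6 passed with the block (32.7% of all genes), NFKB2 (higher) and RELB (lower) being the additional genes.

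The neutrophil chemokine CXCL1 (chr4:73869393-73871308, plus strand, GRCh38) fell 4.82-fold under i-BET858 and 5.31-fold under i-BET151 within 4 h. With DMSO at 4 h its counts were 391, 1017 and 655, under i-BET858 they were 96, 124 and 160, and under i-BET151 they were 83, 134 and 119. Every treated library lay below every DMSO library. In the fit, the log2 fold change was −2.27 ± 0.302 (SE, adjusted p = 1.97e-04) under i-BET858 and −2.41 ± 0.304 (adjusted p = 3.72e-04) under i-BET151. At 24 h the DMSO counts were 496, 480 and 708, those under i-BET858 were 27, 46 and 119, and those under i-BET151 were 55, 22 and 131. The groups were again separate, and replicate 3 was the highest treated library with each drug. The fitted log2 fold change was −3.39 ± 0.669 (adjusted p = 0.00208) under i-BET858 and −3.23 ± 0.663 (adjusted p = 0.00356) under i-BET151. Without the treated replicate 3 of the drug compared, these values were −4.30 and −4.16. CXCL1 passed in each fit that leaves out a library, with values of −2.53 to −2.02 and −2.66 to −2.14 at 4 h and of −4.30 to −2.95 and −4.16 to −2.82 at 24 h.

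CXCL8 (chr4:73740519-73743716, plus strand), which encodes interleukin-8, fell with both drugs at both times. The DMSO counts were 115, 365 and 119 at 4 h, against 52, 46 and 26 under i-BET858 and 27, 30 and 26 under i-BET151. DMSO replicate 2 was far above the other DMSO libraries, and the lowest DMSO library was still above every treated one. Against DMSO, the log2 fold change was −2.01 ± 0.463 (adjusted p = 0.00643) under i-BET858 and −2.60 ± 0.478 (adjusted p = 0.00375) under i-BET151. At 24 h the DMSO libraries were close together at 161, 143 and 157 counts, and the treated ones had 15, 20 and 58 under i-BET858 and 14, 10 and 24 under i-BET151. The log2 fold change was −2.56 ± 0.555 (adjusted p = 0.00362) under i-BET858 and −3.46 ± 0.587 (adjusted p = 0.00114) under i-BET151. Without DMSO replicate 2 the values at 4 h were −1.40 and −1.99, and without i-BET858 replicate 3 the value at 24 h was −3.50. With each library left out in turn, the log2 fold change lay between −2.31 and −1.40 under i-BET858 and between −2.84 and −1.99 under i-BET151 at 4 h, and between −3.50 and −2.16 and between −3.94 and −3.25 at 24 h. CXCL8 passed in each of these fits.

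CXCL2 (chr4:74097040-74099196, minus strand), a close relative of CXCL1, had a lower CPM in every treated than in every DMSO library, but its spread was wide and its calls depended on single libraries and on the fit. At 4 h it had 40, 83 and 106 counts under DMSO, 10, 16 and 40 under i-BET858 and 13, 13 and 0 under i-BET151. The i-BET151 library without a count, replicate 3, had a limit of 0.0803 CPM. The fitted log2 fold change was −1.70 ± 0.829 (adjusted p = 0.151) under i-BET858, which did not pass, and −2.88 ± 0.892 (adjusted p = 0.0486) under i-BET151. At 24 h it had 36, 38 and 102 counts under DMSO, 24, 5 and 22 under i-BET858 and 17, 3 and 23 under i-BET151. The log2 fold changes were −2.14 ± 0.772 (adjusted p = 0.0452) and −2.27 ± 0.779 (adjusted p = 0.0446). Each of these 3 calls held in only 1 of the 6 fits that leave out a library: without i-BET151 replicate 3 for i-BET151 (adjusted p = 0.0299 at 4 h and 0.0312 at 24 h) and without DMSO replicate 1 for i-BET858 (0.0494). In the other fits the adjusted p reached 0.161, 0.183 and 0.197. Without DMSO replicate 3 the log2 fold changes at 24 h were −1.44 under i-BET858 and −1.58 under i-BET151. Without i-BET151 replicate 3 those under i-BET151 were −2.26 at 4 h and −2.87 at 24 h. Under i-BET858 at 4 h the log2 fold change was −2.31 without i-BET858 replicate 3 (adjusted p = 0.0830). With all 18 libraries in 1 fit both calls at 24 h were lost (0.0634 and 0.0585), and with only the groups compared the i-BET151 call at 4 h was lost (0.0543). The i-BET858 value at 4 h passed without the filter on low counts (0.0350) and with only the groups compared (0.0358). Without replicate 3 of all groups, CXCL2 passed in all 4 comparisons, with log2 fold changes of −1.91 and −1.87 at 4 h and of −1.79 and −2.18 at 24 h. Of the 50-base stretches of annotated CXCL1 and CXCL2 exons, 5.33% and 5.63% are shared between these genes, and 5.07% of those of CXCL2 are shared with CXCL3. The reads were paired and longer than these stretches, and the effect of the sharing on the counts was not tested.

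CCL20 (chr2:227805739-227817564, plus strand), the CCR6 ligand, fell at 24 h. At 4 h it had 8, 33 and 35 counts under DMSO, 14, 13 and 9 under i-BET858 and 8, 6 and 0 under i-BET151, and the groups overlapped. The log2 fold changes at 4 h were −0.87 ± 0.925 (adjusted p = 0.524) and −2.16 ± 0.993 (adjusted p = 0.174). The i-BET151 value at 4 h was −2.78 without i-BET151 replicate 1 (adjusted p = 0.221) and −1.55 without i-BET151 replicate 3 (0.211). At 24 h it had 12, 16 and 18 counts under DMSO, 5, 1 and 0 under i-BET858 and 1, 0 and 0 under i-BET151, so that the groups did not overlap. The log2 fold change under i-BET858 was −3.29 ± 1.05 (adjusted p = 0.0269). With i-BET151, 1 count over 3 libraries against 46 gave a ratio of CPM that was 54.9-fold lower, with an exact interval of 9.37 to 2213 for counting error (adjusted p = 0.00863). The i-BET858 call was lost without any 1 of the libraries other than i-BET858 replicate 1 (adjusted p of 0.0573 to 0.113), and without the filter on low counts (0.0889), and the i-BET151 call without i-BET151 replicate 2 (0.0527). The i-BET858 value ranged from −4.83 without i-BET858 replicate 1 to −2.76 without i-BET858 replicate 3. Without i-BET151 replicate 1, which held the 1 count, CCL20 was at least 11.4-fold lower under i-BET151. Without replicate 3 of all groups, CCL20 passed with both drugs at 24 h (adjusted p = 0.00690 and 0.00139).

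CCR1 (chr3:46201711-46208313, minus strand) had counts in all 6 DMSO libraries and none in any of the 12 treated libraries. The DMSO libraries had 29, 17 and 13 counts at 4 h and 6, 15 and 40 at 24 h, which is 0.197 to 1.3 CPM. These levels were low, but each lay above the level that a count of 0 allows in any treated library. With the limit of 3 counts over the 3 treated libraries, CCR1 was at least 19.8-fold lower under i-BET858 and at least 18.4-fold lower under i-BET151 at 4 h, and at least 27.3-fold and 24.2-fold lower at 24 h. DMSO replicate 3 held 40 of the 61 DMSO counts of 24 h, and without it these bounds were 14.4-fold and 12.8-fold. Leaving out a treated library lowers the depth behind the limit, and the bounds were 12.1-fold and 11-fold at 4 h without the treated replicate 3, and 16.7-fold and 15.1-fold at 24 h without the treated replicate 1. At 4 h the adjusted p was 0.0100 under i-BET858 and 0.0187 under i-BET151. At 24 h CCR1 was below the filter on low counts, and without that filter the adjusted p was 3.87e-04 and 5.93e-04. Both calls at 4 h were lost without DMSO replicate 1 (adjusted p = 0.0567 and 0.0963), and the i-BET151 call also without DMSO replicate 2 (0.0614) or i-BET151 replicate 1 or 2 (0.0618 and 0.0615). Without replicate 3 of all groups, the adjusted p at 4 h was 0.00148 and 0.00298. No exon of CCR1 overlaps another gene of the annotation. The summed leukocyte markers spanned 1.67 to 3.46 CPM under DMSO, 2.24 to 2.61 under i-BET858 and 1.46 to 2.73 under i-BET151 at 4 h, and 1.78 to 3.16, 1.29 to 1.76 and 0.441 to 1.03 at 24 h. CD68, CD3E and FCGR3A, which define macrophages, T cells and natural killer cells, were at or near 0 in all 18 libraries. At each time 2 of the 10 leukocyte markers had enough counts to be tested. Neither passed at 4 h, and at 24 h 1 of the 2 fell with each drug, beside 21.3% and 16.6% of all genes. The median log2 fold change of the 2 at 24 h was −1.94 under i-BET858 and −2.63 under i-BET151. The part of the lower marker sum at 24 h in the CCR1 result was not tested.

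**Figure D2:**
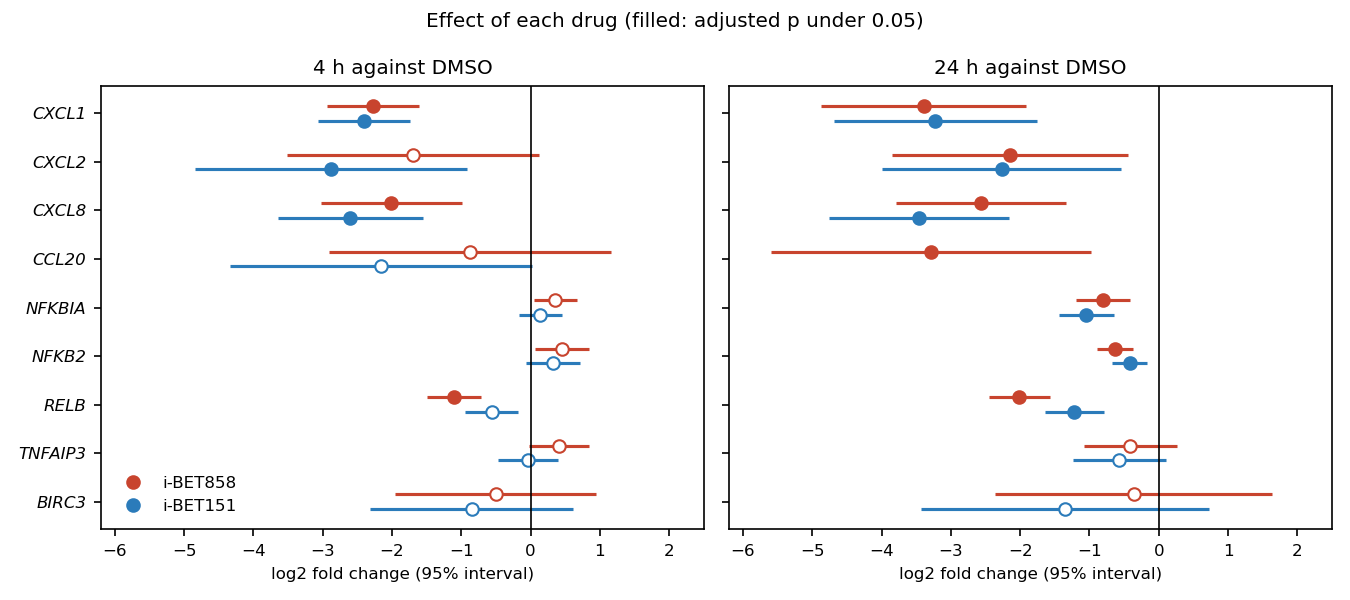
Log2 fold change against DMSO (horizontal axis) with its 95% interval for 9 genes at 4 h (left) and 24 h (right), from edgeR. Filled points have an adjusted p under 0.05, open points do not. CCR1, at 0 counts in all treated libraries, and CCL20 under i-BET151 at 24 h, at 1 count, have no point. The points of the chemokines, filled or open, lie left of 0 in both panels, and NFKBIA and NFKB2 move from the right of 0 at 4 h to the left at 24 h.

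NFKBIA (chr14:35401079-35404749, minus strand), the IκBα gene, passed with neither drug at 4 h and fell with both at 24 h. At 4 h its level was 141 CPM ± 16.6 under DMSO, 161 ± 14.4 under i-BET858 and 148 ± 16.4 under i-BET151 (SD, n = 3 each), and the groups overlapped. Against DMSO, the log2 fold change was 0.36 ± 0.141 (adjusted p = 0.0776, and 0.00254 with the replicate block) under i-BET858 and 0.14 ± 0.141 (adjusted p = 0.576) under i-BET151. At 24 h the DMSO libraries had 119, 134 and 154 CPM, those under i-BET858 had 62.2, 73.6 and 83.5, and those under i-BET151 had 61.5, 56.1 and 76.3. All treated libraries lay well below all DMSO libraries. In the fit, the log2 fold change was −0.81 ± 0.177 (adjusted p = 0.00388) under i-BET858 and −1.04 ± 0.178 (adjusted p = 0.00119) under i-BET151, and both calls held whichever library was left out.

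NFKB2 (chr10:102394110-102402524, plus strand) likewise passed with neither drug at 4 h and fell with both at 24 h. Its level was 104 CPM ± 22.6 under DMSO at 4 h, 128 ± 25.0 under i-BET858 and 125 ± 22.8 under i-BET151, with overlapping groups. The log2 fold changes at 4 h were 0.45 ± 0.177 (adjusted p = 0.0757) and 0.32 ± 0.177 (adjusted p = 0.262), and with the replicate block both passed (adjusted p = 0.00192 and 0.0252). The i-BET858 value at 4 h also passed without the filter on low counts (0.0228), with all 18 libraries in 1 fit (0.0373), without DMSO replicate 2 (0.0460), without i-BET858 replicate 3 (0.0292) and without replicate 3 of all groups (0.0193). At 24 h it had 125, 128 and 95.3 CPM under DMSO, 73.9, 77.9 and 59.9 under i-BET858 and 89.5, 81.8 and 82.1 under i-BET151. The lowest DMSO library was above the highest treated one. The log2 fold change was −0.63 ± 0.116 (adjusted p = 0.00141) under i-BET858 and −0.42 ± 0.116 (adjusted p = 0.0168) under i-BET151. The i-BET151 call at 24 h was lost without DMSO replicate 1 (0.0640), DMSO replicate 2 (0.0743) or i-BET151 replicate 2 (0.0734), and with all 18 libraries in 1 fit (0.0616).

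RELB (chr19:45001461-45038192, plus strand) fell at both times under i-BET858. At 4 h it had 19.5, 21.6 and 25.0 CPM under DMSO, 9.48, 7.85 and 10.1 under i-BET858 and 12.8, 15.7 and 14.5 under i-BET151. The 3 groups did not overlap, and i-BET151 lay between the other two. Against DMSO, the log2 fold change was −1.11 ± 0.178 (adjusted p = 6.92e-04) under i-BET858 and −0.56 ± 0.175 (adjusted p = 0.0501, and 0.00721 with the replicate block) under i-BET151. That last value also passed with DESeq2 (0.0235), total library size (0.0279), only the groups compared (0.0473) and all 18 libraries in 1 fit (0.0360). At 24 h it had 19.8, 20.3 and 22.6 CPM under DMSO, 5.38, 4.72 and 4.58 under i-BET858 and 9.0, 6.7 and 10.7 under i-BET151. The order of the groups was the one of 4 h. In the fit, the log2 fold change was −2.01 ± 0.198 (adjusted p = 2.18e-05) under i-BET858 and −1.22 ± 0.192 (adjusted p = 7.34e-04) under i-BET151.

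TNFAIP3 and BIRC3, which encode the ubiquitin-editing enzyme A20 and the ubiquitin ligase cIAP2, passed in no comparison against DMSO. TNFAIP3 (chr6:137867214-137883314, plus strand) had 14.6 CPM ± 3.37 under DMSO at 4 h, 17.2 ± 2.22 under i-BET858 and 13.7 ± 1.12 under i-BET151, and 9.57 ± 1.11, 6.76 ± 2.65 and 6.31 ± 1.69 at 24 h (SD, n = 3 each). Its log2 fold changes were 0.40 ± 0.196 (adjusted p = 0.148) and −0.036 ± 0.197 (adjusted p = 0.932) at 4 h, and −0.41 ± 0.303 (adjusted p = 0.312) and −0.57 ± 0.304 (adjusted p = 0.177) at 24 h. At 24 h all i-BET151 libraries were below all DMSO libraries, while i-BET858 replicate 3 overlapped with DMSO. With the replicate block, the value under i-BET858 at 4 h passed (adjusted p = 0.0423), as did both at 24 h (0.0361 and 0.0124). Replicate 3 of i-BET858 at 24 h, at 9.83 CPM, was apart from 5.25 and 5.22 in the others, and without it the fold change was −0.80 on the log2 scale (adjusted p = 0.0352). Without replicate 3 of all groups, TNFAIP3 passed with both drugs at 24 h, at −0.67 (adjusted p = 0.00194) and −0.70 (adjusted p = 0.00192). BIRC3 (chr11:102317484-102339403, plus strand) had 17, 31 and 26 counts under DMSO at 4 h, 16, 15 and 15 under i-BET858 and 17, 3 and 17 under i-BET151. At 24 h it had 18, 18 and 24 counts under DMSO, 19, 13 and 26 under i-BET858 and 10, 17 and 0 under i-BET151. Its log2 fold changes lay between −0.36 and −1.36 with adjusted p values of 0.303 to 0.783. The value under i-BET151 at 24 h, −1.36, was −2.34 without i-BET151 replicate 2 (adjusted p = 0.183) and −0.79 without i-BET151 replicate 3, the library without a count. An exon of an opposite-strand gene overlaps 95 bases of TNFAIP3 (WAKMAR2) and another 126 bases of BIRC3 (ENSG00000288528), and the strand setting of the counting is not given in the sources used here.

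Between i-BET858 and i-BET151 at the same dose and time, 0 of the 10 genes passed at 4 h (CCR1, at 0 with both drugs, among them) and 0 of 9 at 24 h, where 0.971% and 0.210% of all genes passed (edgeR quasi-likelihood test). An unadjusted p under 0.05 was found for 2 of the 10 genes at 4 h (RELB and TNFAIP3) and for 1 of 9 at 24 h (RELB). Of all genes, 2042 of 17192 had one at 4 h and 1953 of 17157 at 24 h. DESeq2 called 0 of the followed genes at 4 h and 1 at 24 h. That gene was RELB, whose log2 difference of i-BET858 minus i-BET151 was −0.54 ± 0.177 (adjusted p = 0.205) at 4 h and −0.79 ± 0.194 (adjusted p = 0.143) at 24 h. All 9 pairs of libraries had less RELB under i-BET858 at both times. With the replicate block RELB passed at both times (adjusted p = 0.0278 and 0.0197, where 9.63% and 4.37% of all genes passed), without the filter on low counts it passed at 24 h (0.0457), and without replicate 3 of all groups 0 genes passed at 4 h (2.29% of all genes) and 1 at 24 h (7.29% of all genes), RELB (0.0484). For NFKBIA the log2 difference was 0.22 with a 95% interval of −0.09 to 0.53 at 4 h and 0.23 with an interval of −0.16 to 0.62 at 24 h. For CXCL1 it was 0.14 (−0.52 to 0.79) and −0.16 (−1.62 to 1.29), and for CXCL8 0.59 (−0.46 to 1.63) and 0.90 (−0.38 to 2.18). At 24 h the intervals of CXCL1, CXCL2 and CXCL8 thus allow differences of 2-fold or more in at least 1 direction. Groups did not overlap between the drugs in 2 of the 10 genes at each time (RELB and TNFAIP3 at 4 h, RELB and NFKB2 at 24 h), beside 18.1% and 19.7% of all genes.

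The effect of i-BET858 moved downwards from 4 to 24 h in NFKBIA, NFKB2 and RELB, and that of i-BET151 in NFKBIA and NFKB2. The drug-by-time interaction, which is the log2 fold change at 24 h minus the one at 4 h, was −1.12 ± 0.229 (adjusted p = 0.00140) for NFKBIA, −1.04 ± 0.224 (adjusted p = 0.00207) for NFKB2 and −0.86 ± 0.257 (adjusted p = 0.0180) for RELB under i-BET858. With i-BET151 it was −1.16 ± 0.229 (adjusted p = 0.00286) for NFKBIA and −0.72 ± 0.224 (adjusted p = 0.0381) for NFKB2. These are 3 and 2 of the 10 genes, where 27.2% of all genes passed under i-BET858 (12.6% downwards) and 13.8% under i-BET151 (6.82% downwards). For CXCL1 the interaction was −1.07 ± 0.734 (adjusted p = 0.313) and −0.80 ± 0.733 (adjusted p = 0.534), and for CXCL8 −0.51 ± 0.732 (adjusted p = 0.664) and −0.85 ± 0.755 (adjusted p = 0.521). Without replicate 3 of all groups, the interaction of CXCL1 passed with both drugs (−1.78, adjusted p = 0.0181, and −1.64, adjusted p = 0.0392) and that of CXCL8 under i-BET858 (−1.56, adjusted p = 0.0400). The i-BET858 values of NFKBIA, NFKB2 and RELB passed in all 12 fits that leave out a library, whereas NFKB2 under i-BET151 passed in 3 of 12 (adjusted p of 0.0202 to 0.108). RELB under i-BET858 did not pass without the filter on low counts (−0.83, adjusted p = 0.0586), nor did NFKB2 under i-BET151 with total library size (−0.72, adjusted p = 0.0669). With the replicate block, TNFAIP3 under i-BET858 (−0.82, adjusted p = 0.0164) and RELB under i-BET151 (−0.65, adjusted p = 0.0269) passed too, where 38.3% and 25.2% of all genes passed. Without replicate 3 of all groups they passed at −1.12 (adjusted p = 0.00316) and −0.82 (adjusted p = 0.0199). The value of TNFAIP3 was −1.17 (adjusted p = 0.0127) without i-BET858 replicate 3 of 24 h, and that of RELB was −0.81 (adjusted p = 0.0453) without i-BET151 replicate 3 of 24 h. Without i-BET858 replicate 3 of 24 h, 5 genes passed under i-BET858 in place of 3, CXCL1 (−2.0, adjusted p = 0.0410) and TNFAIP3 being the additional ones (24.7% of all genes), and without replicate 3 of all groups 6 passed under i-BET858 and 5 under i-BET151 (40.6% and 26.3% of all genes).

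**Figure D3:**
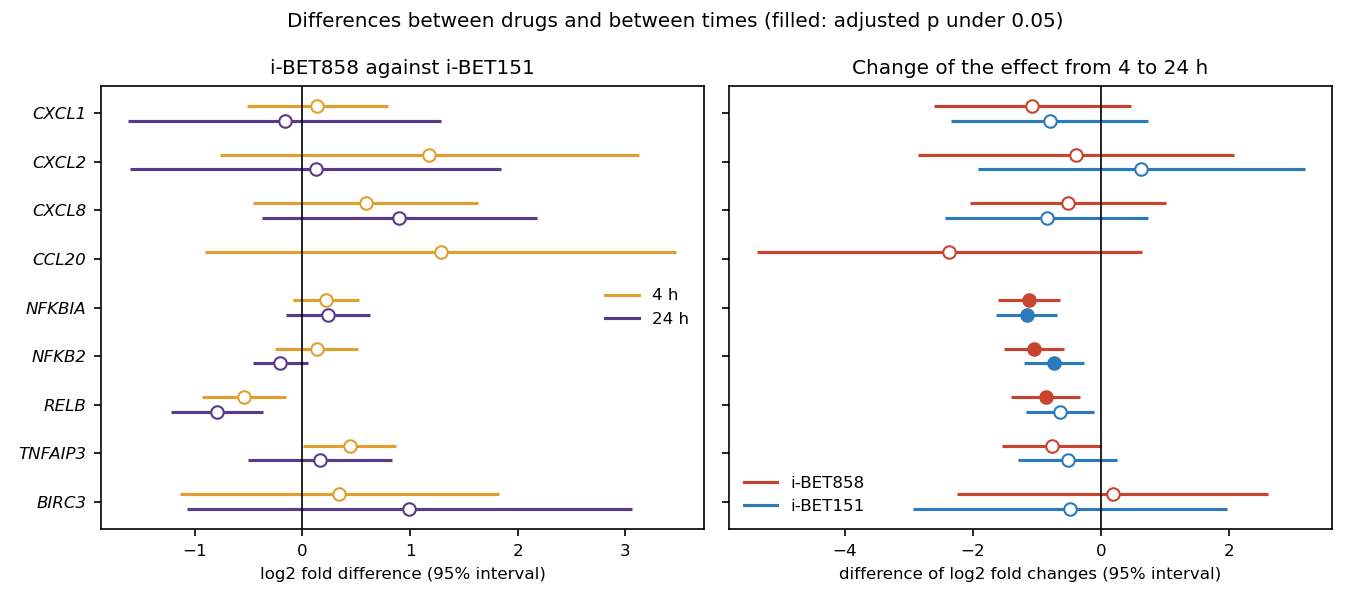
Left, log2 difference of i-BET858 minus i-BET151 with its 95% interval at 4 and 24 h. Right, change of each drug's log2 fold change from 4 to 24 h with its 95% interval, for 9 genes, from edgeR, with filled points at an adjusted p under 0.05. CCR1, and CCL20 where the i-BET151 libraries of 24 h enter, have no point. No drug difference is filled, and 5 changes with time are, all of them below 0.

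The remaining genes of the pathway were taken from 10 lists of 146 genes in all, 136 without the 10 above. These lists, too, were chosen with earlier results of these data known. At 4 h, 77 of the 136 had enough counts, of which 10 rose and 20 fell under i-BET858 (13.0% higher and 26.0% lower, beside 14.5% and 16.3% of all genes) and 8 rose and 16 fell under i-BET151 (10.4% and 20.8%, beside 7.81% and 8.43%). At 24 h, 74 had enough counts, of which 13 rose and 29 fell under i-BET858 (17.6% and 39.2%, beside 20.5% and 21.3%) and 12 rose and 28 fell under i-BET151 (16.2% and 37.8%, beside 17.2% and 16.6%). A gene had to reach the level of the filter on low counts in 3 libraries, and 3 of the 77 and 7 of the 74 did not do so without the DMSO libraries. Of the falls at 24 h, 3 of 29 under i-BET858 and 2 of 28 under i-BET151 were among those, and none of the falls at 4 h. TLR3, TNFSF12 and CXCL6 at 24 h, named below, reached it only with the DMSO libraries, and CXCL14 at 4 h and CCR4 only with the treated ones. Under i-BET858, the median log2 fold change of the 77 genes tested at 4 h was −0.22 and that of the 74 tested at 24 h was −0.27, against 0.02 and −0.01 for all genes.

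**Figure D4:**
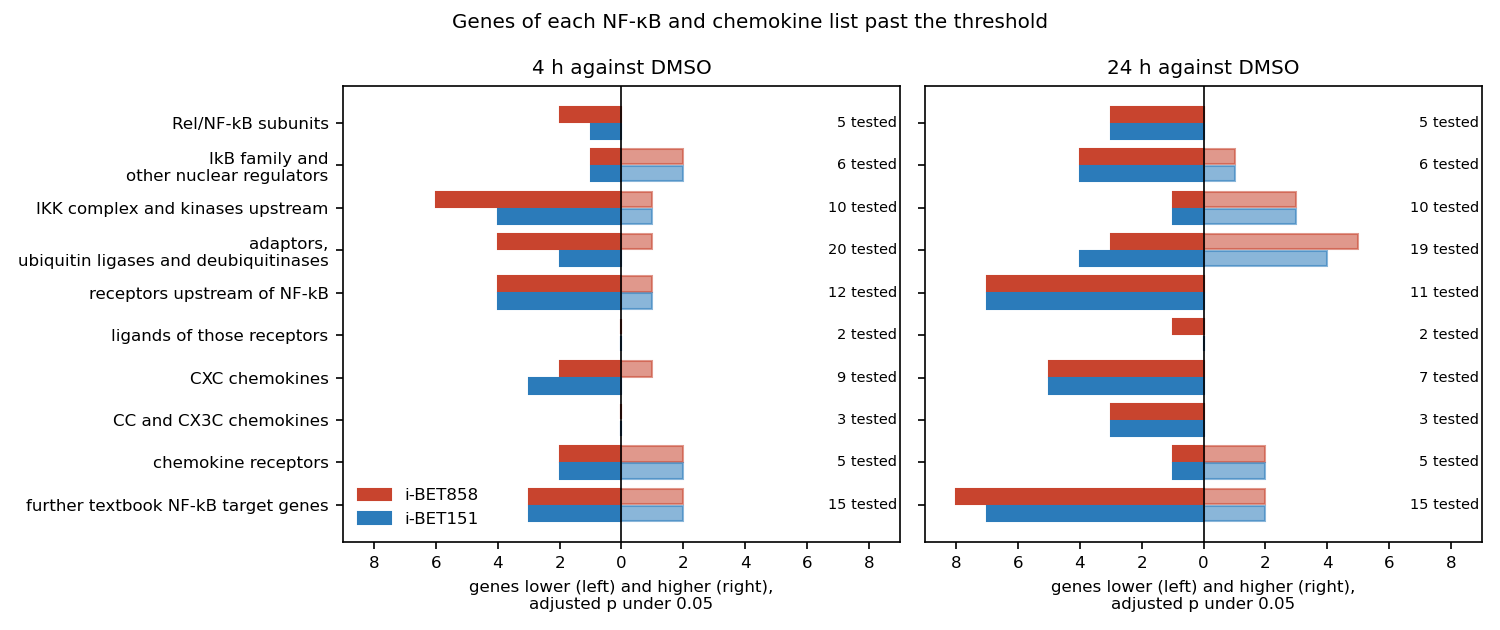
Number of genes of each list that were lower (left of 0) or higher (right of 0) than under DMSO at an adjusted p under 0.05, for i-BET858 and i-BET151 at 4 h and 24 h, with the number tested for i-BET858 at the right of each panel. The lists include the 10 genes where they belong. All calls among the receptors upstream of NF-κB and among the chemokines at 24 h lie to the left of 0.

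Among the 5 Rel/NF-κB subunits, 2 fell at 4 h and 3 at 24 h under i-BET858, none rose, and the largest falls were those of RELB and of NFKB1, the p105/p50 gene (−0.83 ± 0.194, adjusted p = 0.00704, and −1.39 ± 0.125, adjusted p = 1.24e-05). The 6 IκB and nuclear regulator genes moved both ways: 2 rose and 1 fell at 4 h, and 1 rose and 4 fell at 24 h. Of all genes under i-BET858, 14.5% rose and 16.3% fell at 4 h, and 20.5% rose and 21.3% fell at 24 h. NFKBIE, the IκBε gene, rose by 2.15 ± 0.180 at 4 h (adjusted p = 8.86e-06) and by 0.94 ± 0.154 at 24 h (adjusted p = 6.22e-04) on the log2 scale. NFKBIZ, the gene of the nuclear IκBζ, rose by 1.67 ± 0.183 at 4 h. BCL3, a nuclear partner of p50 and p52, had −1.16 ± 0.274 at 4 h and −1.86 ± 0.254 at 24 h, and NFKBID, the gene of another nuclear IκB protein, −1.87 ± 0.288 at 24 h. NFKB1, NFKBIE and BCL3 passed in the same directions under i-BET151 at both times, NFKBIZ at 4 h (1.09, adjusted p = 0.00201) and NFKBID at 24 h (−1.39, adjusted p = 0.00341).

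Of the 10 genes of the IKK complex and kinases upstream, 1 rose and 6 fell at 4 h under i-BET858 (all genes, 14.5% and 16.3%), and 3 rose and 1 fell at 24 h (all genes, 20.5% and 21.3%). MAP3K14, the kinase NIK of the non-canonical pathway, rose by 1.07 ± 0.213 at 4 h and 0.89 ± 0.220 at 24 h. TBK1 (−1.50 ± 0.227) and TAB1 (−1.14 ± 0.161) had the largest falls at 4 h. At 24 h CHUK, the IKKα gene, rose by 0.63 ± 0.0939, and IKBKE, the gene of a kinase related to IKK, was the 1 that fell (−2.68 ± 0.539, adjusted p = 0.00233). MAP3K14, TBK1, TAB1, CHUK and IKBKE passed in the same directions under i-BET151 at the same times. TBK1 had −0.74 (adjusted p = 0.0420) and TAB1 −0.59 (adjusted p = 0.0258) under i-BET151 at 4 h. Of the 20 adaptors, ubiquitin ligases and deubiquitinases, 1 rose and 4 fell at 4 h, and 5 of 19 tested rose and 3 fell at 24 h. RIPK1 rose at 4 h (0.48 ± 0.141), and TRAF2 (−1.38 ± 0.242) and OTULIN (−1.22 ± 0.129) had the largest falls. Those with the largest changes at 24 h were CYLD (0.90 ± 0.133) and IRAK4 (0.77 ± 0.201), which rose, and TRAF3 (−1.17 ± 0.119) and MYD88 (−0.87 ± 0.164), which fell. Under i-BET151, OTULIN, CYLD, TRAF3 and MYD88 passed in the same directions at the same times. TRAF2 (−0.73, adjusted p = 0.0584), RIPK1 (0.30, adjusted p = 0.176) and IRAK4 (0.54, adjusted p = 0.0606) did not pass under i-BET151. TRAF3, a brake on NIK, was also lower under i-BET858 than under i-BET151 at 24 h (−0.71 ± 0.118, adjusted p = 0.0491). It was the 1 of 74 list genes tested that was called between the drugs at 24 h (1.35%, beside 0.210% of all genes).

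Of the 13 receptors upstream of NF-κB, 12 were tested at 4 h and 11 at 24 h. With i-BET858, 1 rose and 4 fell at 4 h, beside 14.5% and 16.3% of all genes, and 0 rose and 7 fell at 24 h, beside 20.5% and 21.3%. IL1R1, the signalling receptor of interleukin-1, fell from a mean of 241 to 38.0 CPM at 4 h (−2.51 ± 0.154, adjusted p = 1.31e-06), while TNFRSF1B, a TNF receptor, rose from 2.56 to 11.9 CPM (2.36 ± 0.220, adjusted p = 1.76e-05). TLR6 fell at both times (−1.79 ± 0.445 and −2.59 ± 0.607), and TLR3, the sensor of double-stranded RNA, fell at 24 h (−3.52 ± 0.710). Under i-BET151 these receptors passed in the same directions at the same times, IL1R1 at −2.29 and TNFRSF1B at 1.65. Of the 7 ligands of these receptors, 2 had enough counts, and TNFSF12, the TWEAK gene, fell at 24 h under i-BET858 (79 counts under DMSO and 7 with the drug, −3.86 ± 1.19, adjusted p = 0.0229). It did not pass under i-BET151 (−2.63, adjusted p = 0.0912).

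Among the other chemokines, few were measurable: 9 of 15 CXC genes at 4 h and 7 at 24 h, and 3 of 23 CC and CX3C genes at each time, in these counts that include the 4 chemokines above. At 24 h, 5 of 7 CXC genes and 3 of 3 CC and CX3C genes that were tested fell with each drug, CXCL6 and CCL20 among them. These 2 genes reached the level of the filter in DMSO libraries only. Of the genes that reached it in 3 or more treated libraries, 4 of 4 CXC and 2 of 2 CC and CX3C genes fell, beside 21.3% of all genes under i-BET858 and 16.6% under i-BET151. CXCL6, another CXCR2 ligand, fell from 55 to 5 counts under i-BET858 (−3.67 ± 1.20, adjusted p = 0.0302), and CCL28, an epithelial chemokine, from 82.4 to 6.13 CPM (−3.67 ± 0.219, adjusted p = 1.12e-06). CXCL14 was the 1 chemokine that rose past the threshold, at 4 h under i-BET858, from 4 to 84 counts (4.52 ± 1.42, adjusted p = 0.0318). It reached the level of the filter in 2 of the 3 i-BET858 libraries. Under i-BET151 its log2 fold change at 4 h was 2.99 (adjusted p = 0.190), and the difference between the drugs did not pass (1.53 ± 1.17, adjusted p = 0.713). Of the 23 chemokine receptors, 5 were tested at each time. CXCR4, the CXCL12 receptor, rose from 0.552 to 7.61 CPM under i-BET858 at 4 h (3.93 ± 0.307, adjusted p = 5.98e-06) and from 0.603 to 7.56 at 24 h (3.73 ± 0.312, adjusted p = 7.83e-06). It also rose under i-BET151, by 2.42 at 4 h (adjusted p = 3.22e-04) and 2.81 at 24 h (adjusted p = 7.55e-05). Of the 77 list genes tested at 4 h, CXCR4 was the 1 that was higher under i-BET858 than under i-BET151 (1.51 ± 0.269, adjusted p = 0.0310). That is 1.3% of them, beside 0.971% of all genes called in either direction. CCR4 rose from 3 counts over the DMSO libraries to 55 at 4 h and 82 at 24 h, a ratio of 18.2 (5.90 to 90.8, exact interval for counting error) and 20.3 (6.72 to 101). ACKR2, a scavenger of CC chemokines, fell (−0.69 ± 0.208 and −1.04 ± 0.144). CCR4 and ACKR2 passed in the same directions under i-BET151 at both times.

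Of the 24 further textbook target genes, 15 were tested at each time. With i-BET858, 2 rose and 3 fell at 4 h (14.5% and 16.3% of all genes did), and 2 rose and 8 fell at 24 h (20.5% and 21.3% did). GADD45B, a stress response gene, rose by 2.59 ± 0.244 and 1.65 ± 0.203, and TNFAIP8 by 1.66 ± 0.197 and 0.77 ± 0.187. PLAU, the urokinase gene, had −1.05 ± 0.271 at 4 h and −3.15 ± 0.209 at 24 h (adjusted p = 1.81e-06), CFLAR, the gene of the caspase-8 inhibitor c-FLIP, −1.53 ± 0.196 at 4 h, and CSF1, a macrophage growth factor, −2.96 ± 0.759 at 24 h. Under i-BET151 each of these named genes passed in the same direction at the same times. GADD45B had 1.84 and 0.93 under i-BET151, and PLAU −1.01 and −2.95.

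The genes nearest in pattern were taken for CCR1, CXCL8 and NFKBIA, by the root mean square difference of centred log2 CPM over the 18 libraries, as a description without a test. For CCR1 they were NOG, which encodes the BMP antagonist noggin (0.55), ENSG00000226816 (0.59) and LMO3 (0.63), where the median over all genes compared was 1.67. For CXCL8 they were CXCL1 (0.54), PALMD (0.56) and SAMD9L (0.60), with a median of 1.49. For NFKBIA they were MGST1 (0.12), RARRES2 (0.14) and CDKN2A (0.16), with a median of 0.76.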

How the data were processed

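The 18 libraries hold polyadenylated RNA. The authors aligned paired reads to GRCh38 with STAR and deposited its gene counts, raw and without normalization. The annotation and strand setting are not given in the sources used here. Symbols and positions came from GENCODE 44 (58472 of 58825 identifiers matched). The time of a column came from the table that holds it.

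The 3 conditions of a time point shared 1 quasi-likelihood fit in edgeR 4.0.16 (R 4.3.3), with TMM factors and its default removal of genes with few counts. The change of an effect between times and the DMSO comparison were taken from a fit of all 18 libraries. A gene passed where its Benjamini-Hochberg adjusted p over all genes tested was under 0.05. SE is the size of the log2 fold change divided by the square root of its F statistic. CPM are relative to total counts. The tests were tried on simulated data.

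The 10 genes and the lists were chosen with earlier results of these data known. By the rule for names, all 10 are named, then per list the 2 largest rises and 2 largest falls that passed under i-BET858 at each time, and the 3 genes nearest in pattern to CCR1, CXCL8 and NFKBIA (prior count of 2). Marker genes, and genes behind a small count, were named after their values were seen. The result of 1 marker gene is not reported here.

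To see whether replicate numbers pair the libraries, deviations from the group means were correlated across genes. Pairs with equal numbers had r of 0.125 to 0.344 at 4 h and 0.145 to 0.330 at 24 h, and pairs with unequal numbers −0.311 to 0.216 (median −0.204) and −0.304 to 0.285 (median −0.232), which overlap the former. Centring groups of 3 ties the equal-number and unequal-number values to each other. Whether replicate 3, which stood apart, gave this pattern alone was not tested, so the numbers are not shown to be pairs. The main fit has no block. All equal-number values being above 0.1, the number entered as a block in an alternative fit. The others were DESeq2 1.42.0, its size factors, total library size, other filters, other sets of libraries in the fit, each library left out, replicate 3 left out and a fold change of at least 2.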

Additional observations from a re-analysis of the deposited data

Results flagged for a closer look

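Effects that differed between 4 and 24 h by the interaction test were found in 5 instances. These were 3 of the 10 genes under i-BET858 and 2 under i-BET151, where 27.2% and 13.8% of all genes passed. Under i-BET858 the log2 fold change moved by −1.12 in NFKBIA, by −1.04 in NFKB2 and by −0.86 in RELB. Under i-BET151 it moved by −1.16 in NFKBIA and by −0.72 in NFKB2, and the NFKB2 call depended on single libraries. In NFKBIA and NFKB2 the fold change against DMSO was above 0 at 4 h and below 0 at 24 h with both drugs. Single outlying libraries were not tested within the groups of 3.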

How the results depend on the processing

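Of 150 counts of genes passing under an alternative, 126 were within 1.5 times the one reported. With the replicate number as a block, the count under i-BET858 at 4 h was 7 in place of 4, and 1 in place of 0 between the drugs at each time, and other calls that changed stand beside their genes. Under i-BET151 at 4 h the count was 2 with at least 10 counts in every library (6 genes tested) and 2 to 4 with a library left out. Between the drugs at 24 h it was 1 with DESeq2, 1 without a filter and 1 without replicate 3 (7.29% of all genes). The other shares of all genes with the block and without replicate 3 stand with the results above. For the change of the effect between times, the count under i-BET858 was 6 without replicate 3 and 3 to 5 with a library left out. Under i-BET151 it was 1 with total library size, 1 with a fold change of at least 2, 5 without replicate 3 and 1 to 2 with a library left out.

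Of the values of single genes, 829 kept direction and side of the threshold, 33 passed in place of not passing, 40 ceased to pass and 15 changed sign, none of these past the threshold. TNFAIP3 under i-BET151 at 4 h was 0.15 without replicate 3 and −0.21 to 0.12 with a library left out. Between the drugs at 4 h, CXCL1 was −0.022 without replicate 3 and −0.020 to 0.38 with a library left out, CXCL2 was −0.038 without replicate 3, and BIRC3 was −0.086 to 0.74. At 24 h, with a library left out, CXCL1 was −1.10 to 0.78, CXCL2 −0.32 to 0.74, CXCL8 −0.050 to 1.38 and TNFAIP3 −0.24 to 0.43. The cause was not tested. Depth limits CCL20, CCR1 and BIRC3, with 0 to 40 counts in a library. Single libraries decided calls of CCL20 and CCR1 but none of BIRC3.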
